A study of Mus musculus with 2 samples.

Results

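The S100 genes described here encode small calcium-binding proteins, and 8 were examined: S100a1, S100a4, S100a6, S100a8, S100a9, S100a10, S100a11 and S100a13. They were chosen by symbol, through the Ensembl identifiers of 34728 genes listed for 2 RNA sequencing libraries, and all 8 were found. S100a1 was the member that differed most. It was the most abundant of the 8 in the wild-type library, and its level was 2.03 times as high there as in the library labelled Kdm2b-/-. S100a13, whose start lies next to that of S100a1 on the opposite strand, was 1.60 times as high in the wild-type library, while the other abundant members were within 1.5-fold.

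S100 proteins carry a pair of EF-hand loops, the helix-loop-helix motif that holds calcium, and most act as dimers that change shape when calcium binds and then grip a partner protein. Inside the cell they tune the cytoskeleton, membrane repair and enzyme activity. Released from stressed or activated myeloid cells, several act as alarm signals on receptors such as RAGE and TLR4, and S100a8 and S100a9 together form calprotectin, a metal-binding complex that neutrophils hold in large amounts.

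The cells were peritoneal macrophages of C57BL/6 mice, collected 4 days after thioglycollate, a broth that draws monocyte-derived macrophages into the peritoneal cavity. One library was labelled Kdm2b-/- and the other wild type, with 1 library for each. Both received lipopolysaccharide (LPS, a bacterial cell wall component sensed by TLR4) at 100 ng/ml, for 4 h by the sample characteristics and for 3 h by the treatment protocol. The labels do not say how the Kdm2b allele was made, how many animals were pooled, or their sex or age. Untreated cells were not analysed here, so the values are levels after LPS and not responses to it. Values are FPKM, fragments scaled to transcript length and to library size. There were no replicates, so the spread between animals is unknown and no difference could be compared with it.

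About 26800000 fragments stood behind the library labelled Kdm2b-/- and 27300000 behind the wild-type library. Kdm2b, the targeted gene, was at 0.326 FPKM in the library labelled Kdm2b-/- and at 0.205 FPKM in the wild-type library, with a 95% counting interval of the log2 ratio from -0.046 to 1.38, so its level did not show the loss that the label states. A gene-level value cannot show a deletion that leaves most of the transcript. Xist, made from the inactive X chromosome of females, stood at 0.00398 FPKM and 8.55 FPKM in the same order, and the Y-linked gene Eif2s3y at 10.2 FPKM and listed at 0. The genotype label and the sex of the animals therefore cannot be told apart in any difference below. Macrophage markers were present in both libraries: 9 of 10 passed a mean of 1 FPKM and 0 were 1.5-fold apart, against 7.5% of all genes. That count of 0 lies near the background. B cell markers summed to 2.86 FPKM in the library labelled Kdm2b-/- and 27.3 FPKM in the wild-type library. In the same order, Igkc stood at 1.47 and 18.9 FPKM and Ighm at 0.992 and 6.92 FPKM. They were the 2 of that list past 1 FPKM, and both were at least 2-fold lower, against 1.02% of all genes. Eosinophil and mast cell markers summed to 1.47 and 3.16 FPKM, and dendritic cell markers to 46.4 and 90.1 FPKM. The dendritic cell sums came mostly from H2-Aa, H2-Ab1 and Ccl22, the 3 of that list past 1 FPKM, all lower. Zbtb46 (0.575 and 0.441 FPKM), Cd209a and Flt3 were under 1 FPKM and not lower, and Xcr1 and Clec9a were listed at 0 in both. The part of these cell types in the differences below was not tested. In bulk RNA, fewer cells of a type and less RNA per cell cannot be told apart.

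By level per length, the order in the wild-type library ran from S100a1 through S100a11, S100a10, S100a6, S100a4, S100a13 and S100a8 to S100a9. The 8 members together held 1892 FPKM in the wild-type library and 1363 FPKM in the library labelled Kdm2b-/-, which is 0.471% and 0.362% of the FPKM totals. S100a1 alone made up 67.6% of that difference. Without it the sums were 1188 FPKM in the wild-type library and 1017 FPKM in the library labelled Kdm2b-/-. In the wild-type library S100a1 was 1.89 times the level of S100a10 and 1.88 times that of S100a11. In the library labelled Kdm2b-/- these ratios were 1.02 and 1.07, so the 3 genes stood near one level there.

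**Figure D1:**
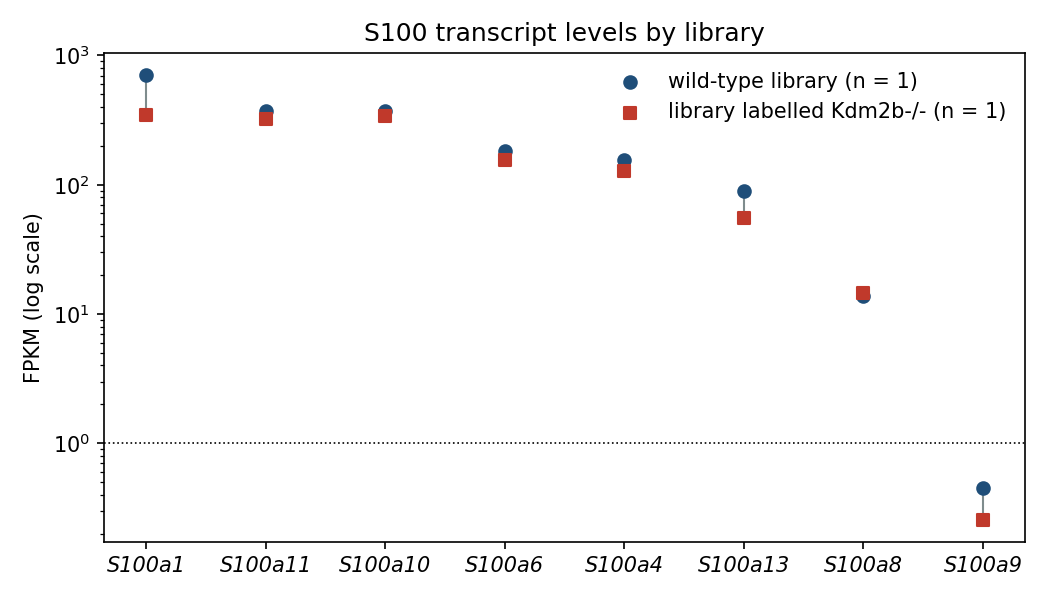
FPKM (log scale) of the 8 S100 members in the wild-type library (circles) and the library labelled Kdm2b-/- (squares), 1 library each, ordered by wild-type level; the dotted line marks 1 FPKM. S100a1 is separated most among the abundant members (704 and 346 FPKM), and S100a9 lies under the line in both libraries.

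Differences are given as the log2 ratio of the library labelled Kdm2b-/- over the wild-type library, computed on FPKM + 1, a scale on which low genes appear closer than they are. Counting intervals are of the ratio without the added 1 FPKM. A gene entered the counts when its mean reached 1 FPKM; 7 of the 8 members did, and S100a9 did not. Of these 7, 1 was at least 2-fold lower (S100a1), against 1.02% of 9039 genes. At 1.5-fold, 2 were lower (S100a1 and S100a13), against 2.8% of all genes, and 0 were higher, against 4.7%. None was 2-fold higher, against 0.863%. Below 0 stood 6 of the 7, against 36.8% of all genes, and the 95% counting interval of the ratio excluded 0 for 6 of the 7, against 63.3%. The median of the 7 was -0.22 and that of all genes 0.10.

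All 7 of these members have short transcripts, and short genes were lower in the library labelled Kdm2b-/- as a class. The longest annotated transcripts of the 7 run from 498 bases (S100a4 and S100a8) to 783 bases (S100a6), within the shortest 10% of genes (132 to 1200 bases). That class had a median log2 ratio of -0.23, rising over length to 0.29 in the longest 10%. In the shortest 10%, 76.9% of 902 genes were below 0, 9.53% at least 1.5-fold lower and 4.1% at least 2-fold lower. The median of the S100 members was therefore at the level of genes of their length, and with the trend over length and GC content removed it was 0.029.

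**Figure D2:**
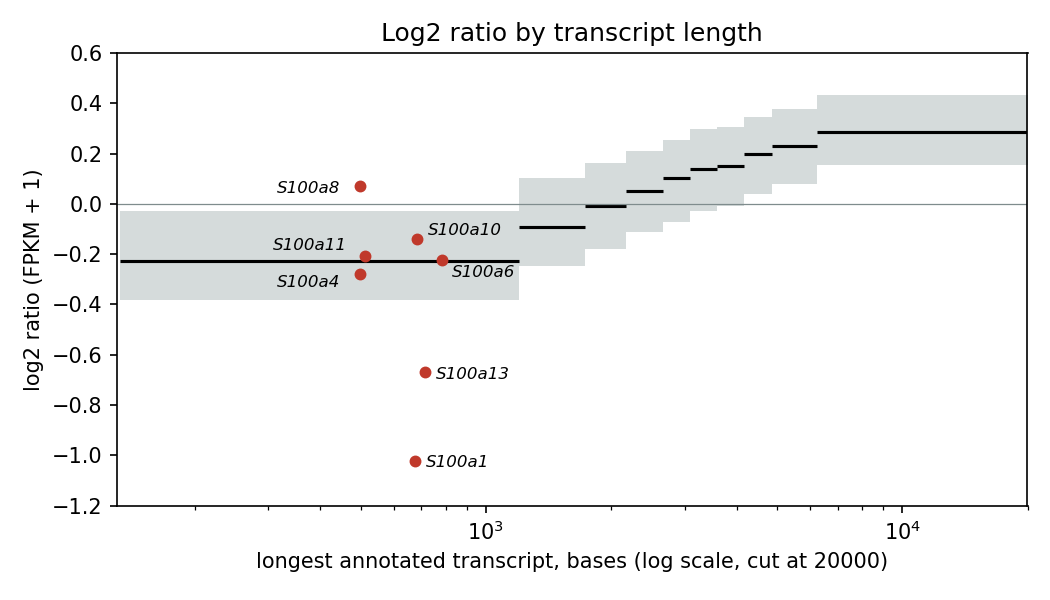
Log2 ratio (FPKM + 1, library labelled Kdm2b-/- over wild type) against the longest annotated transcript in bases (log scale). Black lines are medians and grey bands the middle 50% of genes in each 10% of genes by length; red points are the 7 S100 members past 1 FPKM. S100a4, S100a6, S100a10 and S100a11 lie in the band of the shortest genes (median -0.23), and S100a13 (-0.67) and S100a1 (-1.02) below it.

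S100a1 encodes the family member best known from heart and skeletal muscle, where it acts on calcium release and uptake. The gene (ENSMUSG00000044080, GRCm38 chromosome 3, 90511034 to 90514392, minus strand) stood at 704 FPKM in the wild-type library and 346 FPKM in the library labelled Kdm2b-/-. This placed it at rank 91 of all genes by FPKM in the wild-type library and at rank 154 in the other. The log2 ratio was -1.02, from about 12991 and 6276 fragments, with a 95% counting interval of -1.07 to -0.98. The interval covers counting error only. After removal of the trend over length and GC content the log2 ratio was -0.79, and with the libraries scaled to equal FPKM totals -0.93, so under both it was lower but no longer 2-fold lower. Of the 902 genes of its length class, 36 (3.99%) had a lower log2 ratio. Of the 91 most abundant genes of the wild-type library, S100a1 among them, 2 had a lower one.

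S100a13 encodes a protein that takes part in the release of FGF1 and interleukin-1 alpha, which leave the cell without a signal peptide. The gene (ENSMUSG00000042312, chromosome 3, 90514435 to 90524581, plus strand) stood at 88.7 FPKM in the wild-type library and 55.4 FPKM in the library labelled Kdm2b-/-, a log2 ratio of -0.67. About 1730.0 and 1062 fragments gave a counting interval of -0.79 to -0.57. This lay above the interval of S100a1 and below those of the other 5 members past 1 FPKM, so S100a13 stood between them. With the length and GC trend removed it was -0.46, and with the libraries scaled to equal FPKM totals -0.58, both under 1.5-fold. The level of S100a1 was 7.93 times that of S100a13 in the wild-type library and 6.24 times in the library labelled Kdm2b-/-. Of the cargo genes, Il1a stood at 3115 FPKM in the wild-type library and 2111 FPKM in the library labelled Kdm2b-/- (-0.56), and Fgf1 was under 1 FPKM in both.

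Of the members past 1 FPKM, the pair with the lowest log2 ratios are head-to-head neighbours. The annotated ends of S100a1 and S100a13 leave 42 bases between them in GENCODE, and their RefSeq starts lie 105 bases apart, so 1 short stretch lies upstream of both genes. The libraries are not described as strand-marked. No gene with a symbol among the 34728 listed overlaps either of them, so among these their reads could be assigned by place. Annotated genes outside that list were not searched. The stretch between the RefSeq starts (chr3:90514331-90514434, GRCm38.p6, plus strand) is shown with the region around the start of 5 other members. Each region runs from 80 bases before the start through the first 20 bases from it, on the strand of the gene. The stretch at the pair holds only bases between the 2 starts, so it is not a window like those of the other members. Windows of equal length are compared below. Of the 5 other members shown, S100a4, S100a6, S100a8 and S100a11 were within 1.5-fold. S100a9 was under the floor, at 0.453 FPKM in the wild-type library and 0.256 FPKM in the library labelled Kdm2b-/-, with too few fragments to place. Capitals mark CG dinucleotides, the pair that the zinc finger domain of the Kdm2b protein binds when unmethylated, and the motif TATAAA, a form of the TATA box.
S100a1 and S100a13: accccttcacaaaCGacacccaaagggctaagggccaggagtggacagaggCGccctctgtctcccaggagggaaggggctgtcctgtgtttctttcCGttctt
S100a4: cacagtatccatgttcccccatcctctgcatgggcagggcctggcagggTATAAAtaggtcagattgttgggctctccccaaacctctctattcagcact
S100a6: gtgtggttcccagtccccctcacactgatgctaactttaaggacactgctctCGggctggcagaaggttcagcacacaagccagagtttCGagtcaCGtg
S100a8: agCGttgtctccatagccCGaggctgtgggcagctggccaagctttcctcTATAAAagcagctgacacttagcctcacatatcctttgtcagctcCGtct
S100a9: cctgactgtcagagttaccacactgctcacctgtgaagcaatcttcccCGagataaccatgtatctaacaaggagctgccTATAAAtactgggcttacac
S100a11: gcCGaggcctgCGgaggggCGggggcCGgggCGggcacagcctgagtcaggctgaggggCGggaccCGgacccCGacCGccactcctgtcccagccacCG
These are at chr3:90603690-90603789, chr3:90612814-90612913 and chr3:90668991-90669090 on the plus strand, chr3:90695702-90695801 on the minus strand and chr3:93520416-93520515 on the plus strand. The sequences are RefSeq's, in which 7 of the 8 members were matched. S100a10 is not shown.

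In the full windows of 300 bases (250 before the start and 50 from it), TATAAA, which shares no bases with CG, was searched on both strands and found for S100a4, S100a8 and S100a9, 3 of the 7, against 14.2% of 27025 promoters, 1 per gene symbol. It lay 31 bases before the start of S100a4 and 30 bases before that of S100a8, and at the RefSeq start itself for S100a9. CG was counted in the same windows. S100a11 held 15, S100a13 14 and S100a1 11, in windows that overlap for the last pair, against a median of 7 and an upper quartile of 21 over all promoters, so all 3 counts were between the median and that quartile. S100a6 held 6, S100a8 4, and S100a4 and S100a9 2 each. These counts describe the letters, and no binding was measured here.

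S100a4 encodes a protein that binds non-muscle myosin and is linked to cell movement; fibroblasts and macrophages both express it. The gene (ENSMUSG00000001020, chromosome 3, 90603771 to 90606045) stood at 156 FPKM in the wild-type library and 129 FPKM in the library labelled Kdm2b-/-, a log2 ratio of -0.28 with a counting interval of -0.37 to -0.19. With the length and GC trend removed it was -0.0068. A read-through gene, Gm42674, shares its sequence and was listed at 0 in both libraries. Myh9, the myosin heavy chain that S100a4 binds, went the other way, at 16.4 FPKM in the wild-type library and 27.9 FPKM in the library labelled Kdm2b-/- (0.73, or 0.35 without the trend).

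S100a6, also called calcyclin, binds the ubiquitin-ligase adaptor encoded by Cacybp. The gene (ENSMUSG00000001025, chromosome 3, 90612882 to 90624181) stood at 182 FPKM in the wild-type library and 156 FPKM in the library labelled Kdm2b-/- (-0.22, interval -0.29 to -0.16), and moved to 0.029, across 0, with the trend removed. Cacybp was at 62.1 FPKM in the wild-type library and 45.5 FPKM in the library labelled Kdm2b-/- (-0.44), and Sugt1, another partner, at 68.5 and 50.3 FPKM (-0.44). S100a4 and S100a6 are also expressed by stromal cells. Stromal markers were past the floor in 10 of 10 cases, with 5 at least 2-fold higher in the library labelled Kdm2b-/-, against 0.863% of all genes, and the list summed to 1021 FPKM in that library against 977 FPKM in the wild-type one; mesothelial markers summed to 107 and 106 FPKM. Once that trend was removed, Col1a1 (1.49) and Sparc (1.004) were still 2-fold higher, while Col1a2 (0.95), Col3a1 (0.89) and Bgn (0.999) were under it. Pdpn, the most abundant of the list, and Lum were below 0 (-0.29 and -0.35). The part of stromal cells in the S100a4 and S100a6 values was not tested.

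S100a10, or p11, has lost the ability to bind calcium and forms a complex with annexin A2 that holds plasminogen at the cell surface. The gene (ENSMUSG00000041959, chromosome 3, 93555080 to 93564643) stood at 373 FPKM in the wild-type library and 339 FPKM in the library labelled Kdm2b-/-, a log2 ratio of -0.14 with an interval of -0.19 to -0.089. With the trend removed it was 0.11, on the other side of 0. Anxa2 was close to it in both libraries, at 411 and 360 FPKM (-0.19), so that S100a10 was 0.907 times the level of Anxa2 in the wild-type library and 0.94 times in the library labelled Kdm2b-/-. S100a11 binds annexin A1. It (ENSMUSG00000027907, chromosome 3, 93520488 to 93526287) stood at 374 FPKM in the wild-type library and 324 FPKM in the library labelled Kdm2b-/- (-0.21, interval -0.27 to -0.15, or 0.051 with the trend removed). Its ratio to Anxa1 was 0.658 in the wild-type library and 0.695 in the other. S100a11 has 5 annotated copies that match at least 100 bases at 90% identity or more, from 90.5% to 99.0%, of which the files list 1, at 0 in both libraries, so how its reads were shared with the others is uncertain. The neighbours S100a10 and S100a11 had overlapping counting intervals for the log2 ratio.

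**Figure D3:**
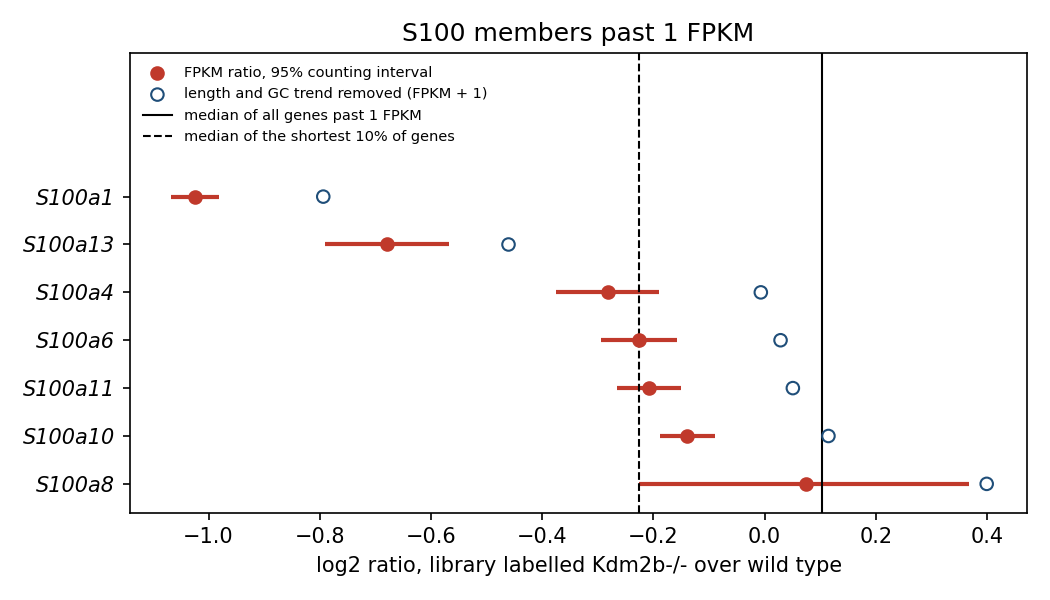
Log2 ratio of FPKM (library labelled Kdm2b-/- over wild type, no pseudocount) with its 95% counting interval for the 7 members past 1 FPKM (filled), and the ratio on FPKM + 1 after removal of the length and GC trend (open). The solid line is the median of all genes (0.10) and the dashed line that of the shortest 10% (-0.23); S100a1 and S100a13 lie left of the dashed line, and the intervals of S100a4, S100a6 and S100a11 cross it.

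The calprotectin genes were at unlike levels. S100a8 (ENSMUSG00000056054, chromosome 3, 90668978 to 90670035) stood at 13.8 FPKM in the wild-type library and 14.6 FPKM in the library labelled Kdm2b-/-. Its log2 ratio was 0.070 with an interval of -0.23 to 0.37, so a difference was not detectable at this depth; scaling to a median of 0 moved it to -0.050, and removing the length and GC trend to 0.40. S100a9 (ENSMUSG00000056071, chromosome 3, 90692632 to 90695721, minus strand), its usual partner, stood at 0.453 FPKM in the wild-type library and 0.256 FPKM in the library labelled Kdm2b-/-, about 6.42 and 3.56 fragments. The interval of its log2 ratio, -2.83 to 1.52, covers differences in either direction. S100a8 was 30.5 times the level of S100a9 in the wild-type library and 56.8 times in the library labelled Kdm2b-/-, with the second value resting on those few fragments. S100a8 was thus present in both libraries with little of the partner transcript.

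Neutrophils, which hold S100a8 and S100a9 together, left little trace in either library. Of 15 neutrophil markers 4 (Ly6g, Mpo, Ctsg and Retnlg) were listed at 0 in both, and the list summed to 12.9 FPKM in the wild-type library and 16.3 FPKM in the library labelled Kdm2b-/-. The 4 past 1 FPKM were Csf3r (5.95 and 6.75 FPKM), Lcn2 (3.28 and 3.83 FPKM), Mmp8 (1.45 and 2.17 FPKM) and Mmp9 (1.54 and 2.83 FPKM). These values are in that order, which the pairs of values below keep. All 4 had log2 ratios above 0, where 36.8% of all genes were below it. Inflammatory monocyte markers summed to 62.0 FPKM in the wild-type library and 94.2 FPKM in the other. Fn1 was the largest part of both sums (28.3 and 62.3 FPKM, 1.11, or 0.78 with the trend removed). Chil3 was at 13.2 and 14.2 FPKM, and Ly6c2 at 0.706 and 0.684 FPKM. Ccr2, a chemokine receptor gene, was at 0.0183 and 0.0425 FPKM. Plac8 was at 13.1 and 7.74 FPKM (-0.69) and F13a1 at 2.29 and 4.25 FPKM (0.67). Of transcription factors linked to S100a8 and S100a9, Cebpb was at 124 and 106 FPKM (-0.22) and Cebpd at 43.4 and 47.3 FPKM (0.12, or -0.044 with the trend removed). Of the 7 of 8 that passed 1 FPKM, 1 was at least 1.5-fold apart, against 7.5% of all genes: Nr3c1, the glucocorticoid receptor gene, at 6.05 FPKM in the wild-type library and 3.51 FPKM in the library labelled Kdm2b-/- (-0.65).

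The remaining family members were low. S100a16 passed 1 FPKM, at 1.25 FPKM in the wild-type library and 1.37 FPKM in the library labelled Kdm2b-/- (0.074, about 38.6 and 41.5 fragments). S100a3 stood at 0.0515 and 0.0577 FPKM. S100a7a was at 0 and 0.0291 FPKM, S100b at 0.0494 FPKM and 0, and S100g at 0.306 FPKM and 0, the last from about 4.00 fragments. S100a5, S100a14 and S100z were listed at 0 in both libraries. S100a7l2 was not analysed here.

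Along chromosome 3 the genes outside the family near S100a1 had log2 ratios on both sides of 0. The members fall into a group spanning 185 kb from S100a1 to S100a9 and a pair, S100a11 and S100a10, 2825 kb further on. Within 500 kb of a member, 13 genes outside the family passed 1 FPKM, with log2 ratios from -0.50 (Jtb) to 0.98 (Tpm3) and a median of 0.092. All 13 lay beyond the S100a1 end of the first group, and none lay within 500 kb of S100a11 or S100a10. Of the 13, 9 were above 0 and 4 below, against 36.8% of all genes below 0. None was 2-fold apart, against 1.88%, or at least 1.5-fold lower, against 2.8%, so these counts of 0 lie near the background. Chtop, the nearest on the S100a1 side, which encodes a chromatin-associated RNA export factor, stood at 3.94 FPKM in the wild-type library and 4.85 FPKM in the library labelled Kdm2b-/- (0.25). On the S100a13 side the next gene past 1 FPKM was S100a16. Most of these neighbours have longer transcripts than the S100 genes, so with the trend removed Chtop was at 0.15 and Tpm3 at 0.93.

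**Figure D4:**
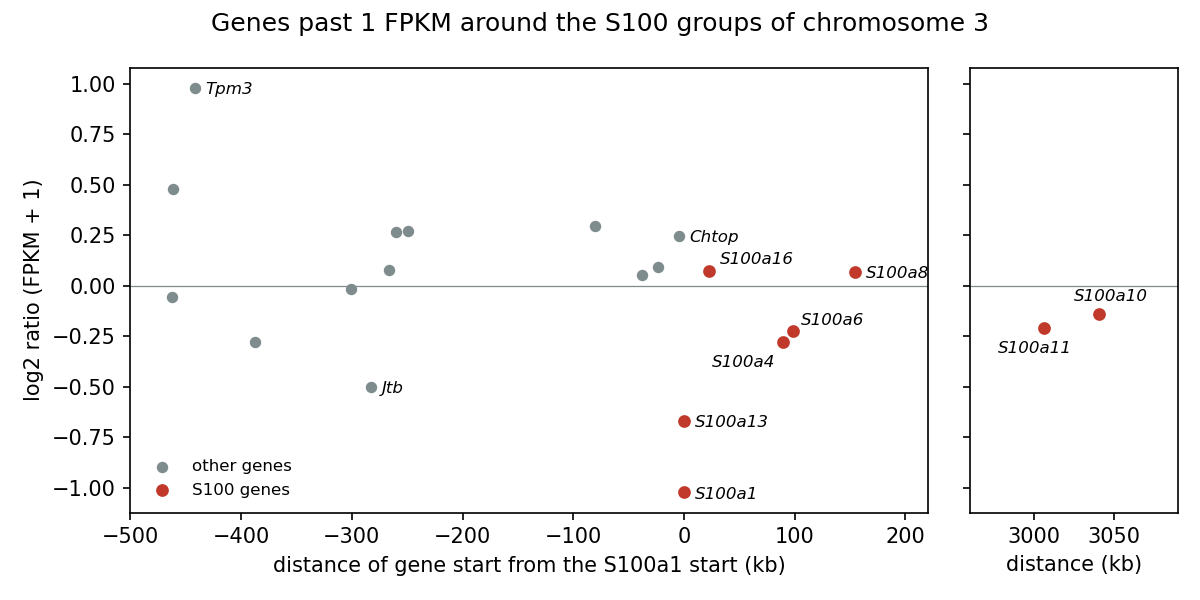
Log2 ratio (FPKM + 1) of genes past 1 FPKM against the distance of their annotated start from that of S100a1, in kb along chromosome 3, for the group at S100a1 (left) and the pair S100a11 and S100a10 (right). Red points are S100 genes and grey points others; S100a1 (-1.02) and S100a13 (-0.67) share a position below the rest, and Chtop beside them is at 0.25.

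Partner and receptor genes did not follow one direction. Of 17 partner genes 15 passed 1 FPKM, 7 above 0 and 8 below, with 0 at least 2-fold apart, against 1.88% of all genes. At 1.5-fold 3 were higher in the library labelled Kdm2b-/-, against 4.7% of all genes: Myh9, Ahnak (26.1 FPKM in the wild-type library and 40.9 in the other, 0.63), a scaffold of the S100a10 and annexin A2 complex, and Plat, the tissue plasminogen activator (12.7 and 22.1 FPKM, 0.75). Plgrkt, a plasminogen receptor, was the 1 at least 1.5-fold lower, against 2.8%, at 7.30 and 4.20 FPKM (-0.67). Once the trend over length and GC was removed, Plat stayed past 1.5-fold (0.63), while Myh9 (0.35), Ahnak (0.36) and Plgrkt (-0.42) did not, and Sugt1 passed it (-0.63). The median of the 15 was -0.19, against 0.10 for all genes.

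Of 9 receptor and adaptor genes for extracellular S100 proteins 8 passed 1 FPKM, and 1 was at least 2-fold higher: Tlr4, at 0.732 FPKM in the wild-type library and 3.45 FPKM in the library labelled Kdm2b-/- (1.36). Over all genes 0.863% were at least 2-fold higher. With the length and GC trend removed Tlr4 was at 1.32. About 81.4 and 377 fragments gave a counting interval, without the added 1 FPKM, of 1.89 to 2.61. The added 1 FPKM thus makes the Tlr4 difference look smaller. Cd14, a co-receptor gene of TLR4, was lower, at 1136 FPKM in the wild-type library and 905 FPKM in the other (-0.33, or -0.30 once the trend was removed), and Cd36 likewise, at 269 and 181 FPKM (-0.56, or -0.59, past 1.5-fold). Ly96, the other co-receptor gene, stood at 16.1 and 12.6 FPKM (-0.33), and at 0.037, across 0, with the trend removed. Ager, which encodes RAGE, stood at 0.0425 and 0.0742 FPKM, under the floor in both. Of 18 other genes of EF-hand proteins, 17 passed 1 FPKM, 8 above 0 and 9 below, with a median of -0.019. With the length and GC trend removed this median was -0.090 and that of the S100 members 0.029, against 0 for all genes, so their order turned. In that group 0 were 1.5-fold lower, against 2.8% of all genes, and 2 higher, against 4.7%: Calu (14.8 and 24.6 FPKM, 0.69) and Rcn3 (29.7 and 45.2 FPKM, 0.59), which encode calcium-binding proteins of the secretory pathway; with the trend removed Calu was at 0.60, still past 1.5-fold, and Rcn3 at 0.57, under it.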

How the data were processed

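TruSeq libraries of polyadenylated RNA were sequenced as paired ends, per the labels' protocols, with 1 library per group. The authors deposited 1 FPKM value per Ensembl gene, per the file headers. GRCm38.p4 and mm10, with HISAT2 2.0.4, StringTie 1.3.0 and edgeR, come from the submitters' processing notes; their roles and the annotation were not given in the sources used here.

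Symbols, lengths and coordinates came from GENCODE M21 (GRCm38), for 34267 of 34745 identifiers, and 17 repeated symbols were summed. Fragments were estimated from the FPKM steps of genes with 1 transcript (92.6% and 92.2% whole within 0.02 of a fragment) and the longest transcript; exact Clopper-Pearson 95% intervals cover counting error only, as PCR copies of 1 molecule are counted separately. Ratios used a pseudocount of 1 FPKM, which the intervals did not, and a floor of 1 FPKM on the mean. No test across samples was possible. The trend over length and GC content was removed by medians in 20 bins each. Copies were searched with blastn. Calculations ran in Python 3.11.15, numpy 2.4.6, pandas 2.3.3 and scipy 1.17.1 and were tested on simulated data. Named genes were drawn from the members, Kdm2b, other family genes above 0, listed genes 2-fold apart or with the largest ratios, and neighbours within 500 kb. Not every listed gene with a large ratio, and not every neighbour, is named. Xist, Eif2s3y, Gm42674 and others were added once their values had been seen. The members and lists were chosen with earlier results of these data known.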

Additional observations from a re-analysis of the deposited data

How the results depend on the processing

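With 1 library per group no library could be left out. No paired analysis was possible because each group held 1 library. S100a1 and S100a13 were lower in the library labelled Kdm2b-/- under each alternative tried. Scaling to a median of 0 gave log2 ratios of -1.15 for S100a1, -0.80 for S100a13, -0.41 for S100a4, -0.35 for S100a6 and for the median of the members, -0.33 for S100a11 and -0.27 for S100a10, and 44 genes 2-fold higher. Equal upper quartiles gave -1.16, -0.81, -0.42, -0.37, -0.35 and -0.28 in that order, and 42 genes 2-fold higher. Equal totals gave -0.93 for S100a1, -0.58 for S100a13, -0.19 for S100a4, -0.13 for S100a6 and the median, -0.11 for S100a11 and -0.045 for S100a10, with 0 members 2-fold lower and 1 at least 1.5-fold lower. Removing the trend over length and GC content gave -0.79 for S100a1, -0.46 for S100a13, -0.0068 for S100a4, 0.029 for S100a6 and the median, 0.051 for S100a11, 0.11 for S100a10 and 0.40 for S100a8, with 0 members 2-fold lower, 1 at least 1.5-fold lower and 44 genes 2-fold higher. S100a9, under the floor, had no value in that setting. A pseudocount of 0.1 gave 311 genes 2-fold apart (174 higher and 137 lower), in place of 170 (78 higher and 92 lower), and one of 5 gave 47 (14 and 33). A floor of 5 FPKM gave 83 (35 and 48). A threshold of 1.5-fold gave 678 (425 and 253). The other settings, no floor and protein-coding genes, moved no member's log2 ratio. Depth limits S100a9 and the low family members, and the fragments of members with several transcripts depend on the length assumed.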

Other observations

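Between S100a9 and S100a11 lies the epidermal differentiation complex, whose genes encode proteins of the outer skin. Of 60 protein-coding genes listed between the pair, 42 were at 0 in both libraries and 5 passed 1 FPKM. Sprr2e, of the small proline-rich family, stood at 6.23 FPKM in the wild-type library and 2.13 FPKM in the library labelled Kdm2b-/- (log2 ratio -1.21 on FPKM + 1). About 110.0 and 37.0 fragments gave a counting interval, without the pseudocount, of -2.13 to -0.998. Sprr2b was at 2.20 and 1.09 FPKM (-0.61), Sprr1a at 3.55 and 2.45 FPKM (-0.40), and Pglyrp3, a peptidoglycan recognition protein gene, at 2.09 and 0.573 FPKM (-0.97). Gm9774 was the 1 above 0, at 9.42 and 11.01 FPKM (0.21). The other 4 were below 0, against 36.8% of all genes and 76.9% of the shortest 10% of genes. The trend over length and GC content was not removed from these values. These genes were chosen after their values were seen, and Sprr2 genes have close copies that could share reads.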
